A study of Mus musculus with 2 samples.

Results

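B lineage cells were a rare fraction of the sorted LSK cells, the mouse bone marrow fraction without lineage markers and with high Sca-1 and Kit, which holds stem cells and multipotent progenitors. A member was a cell that passed the deposited quality call, had at least 1 UMI (distinct RNA molecule) in 3 or more of the 6 genes Cd79a, Cd79b, Vpreb1, Vpreb3, Igll1 and Ebf1, and had fewer than 20 UMIs of Mpo. This gave 117 members of 18029 passing cells, 47 in replicate 1 and 70 in replicate 2, and the other 17912 passing cells are called other LSK cells. The mutant mice are named IkBKO in the deposited cell table and IκB-negative in the labels, where the altered IκB genes are not named, and the controls were young wild-type (WT) mice. Each of the 2 droplet libraries (10x 3′ v3.1) was 1 replicate and held both genotypes, tagged with hashing antibodies after 30000 cells of each condition had been sorted, so there were 4 pools of members. How many mice made up each pool is not stated in the sources used here, so a p-value reflects the spread between pools and nothing wider.

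B cells arise from lymphoid progenitors that switch on Ebf1 and Pax5, the transcription factors that set and keep B identity, while Rag1, Rag2 and Dntt rearrange and diversify the immunoglobulin genes. Pro-B and large pre-B cells express Vpreb1 and Igll1, which encode the surrogate light chain. In the pre-B cell receptor of large pre-B cells it pairs with the μ heavy chain and signals through Cd79a and Cd79b. Immature and mature B cells carry a full receptor with a true light chain, express Ms4a1 (CD20) and present antigen on MHC class II, and plasma cells secrete antibody with Jchain. IκB proteins hold NF-κB dimers inactive in the cytoplasm, and NF-κB is known as a regulator of survival and antigen presentation genes in B cells.

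The promoters of the surrogate light chain genes are shown because these genes define the stages below. Both lie on mouse chromosome 16, and the 250 bases before each RefSeq gene start are given on the gene's strand, in capitals where they match CAGNTG on either strand, the E-box core bound by E2A proteins. The Igll1 window is chr16:16863986-16864235 (minus strand, GRCm38.p6), with 3 matches that begin 158, 87 and 8 bases before the start, and the Vpreb1 window is chr16:16869256-16869505 (minus strand), with 1 match 88 bases before it.
Igll1: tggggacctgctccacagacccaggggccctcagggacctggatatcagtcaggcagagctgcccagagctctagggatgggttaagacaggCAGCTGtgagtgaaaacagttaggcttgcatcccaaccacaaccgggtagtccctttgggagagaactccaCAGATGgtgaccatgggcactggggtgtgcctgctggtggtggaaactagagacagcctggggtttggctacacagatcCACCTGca
Vpreb1: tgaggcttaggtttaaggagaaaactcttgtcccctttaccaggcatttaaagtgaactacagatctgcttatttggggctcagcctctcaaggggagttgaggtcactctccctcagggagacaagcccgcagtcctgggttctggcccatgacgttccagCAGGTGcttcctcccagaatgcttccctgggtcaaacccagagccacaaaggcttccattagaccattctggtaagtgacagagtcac
Of the 6 rule genes 5 had a window and 4 of those (Cd79a, Vpreb1, Vpreb3 and Igll1) held CAGNTG, a motif also found in 44.8% of all 32851 windows. A second motif, CCCNNGGG, the core of the EBF1 site, was in 1 of the 5 windows, that of Igll1, and in 11.8% of all windows.

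The rule genes chose the members, so their values describe and support nothing. Across all passing cells 12122 had a UMI in none of the 6 genes, 5483 in 1, 299 in 2, 44 in 3, 22 in 4, 6 in 5 and 53 in all 6, so most cells were far below the rule and many members far above it. Just outside the rule, the 299 cells with 2 rule genes included 84 with 20 or more Mpo UMIs, and just inside it, 5 of the 44 cells with 3 rule genes were left out for Mpo. Cd79a, the receptor's signalling α chain, stood at 921 and 973 CPM (counts per 1e6 UMIs of the pool) in IkBKO members of replicates 1 and 2 and at 883 and 801 CPM in WT members, against 0.703 to 1.09 CPM in other LSK cells. Vpreb1 had 1075 and 809 CPM in IkBKO members and 560 and 698 CPM in WT members. Igll1 had 651 and 584 CPM in IkBKO members and 306 and 368 CPM in WT members, so for both surrogate light chain genes the IkBKO pools were the higher ones, by their descriptive values. Vpreb3 had 1186 and 846 CPM in IkBKO members and 1041 and 755 CPM in WT members. Ebf1 had 1070 and 847 CPM in IkBKO members and 901 and 970 CPM in WT members, with no order between genotypes that held in both libraries.

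Cd79b was the exception among the rule genes, because many LSK cells carried it. It stood at 593 and 341 CPM in IkBKO members and 433 and 327 CPM in WT members, against 31.4 to 36.1 CPM in other LSK cells. A Cd79b UMI was found in 22.6 to 38.7% of other LSK cells and in 42.5 to 59.1% of cells with 20 or more Mpo UMIs, which are myeloid in type and have median depths of 19454 to 22883 UMIs. In those same Mpo-high cells Cd79a was found in 0.196 to 2.5% and Igll1 in 0 to 2.38%. A single Cd79b UMI therefore says little of the lineage at these depths, whereas a Cd79a or Igll1 UMI was rare outside the members. Members had median depths of 7886 and 14263 UMIs in IkBKO and 8754 and 9102 UMIs in WT, and other LSK cells 13732 and 9616 UMIs in IkBKO and 9963 and 6972 UMIs in WT.

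**Figure D1:**
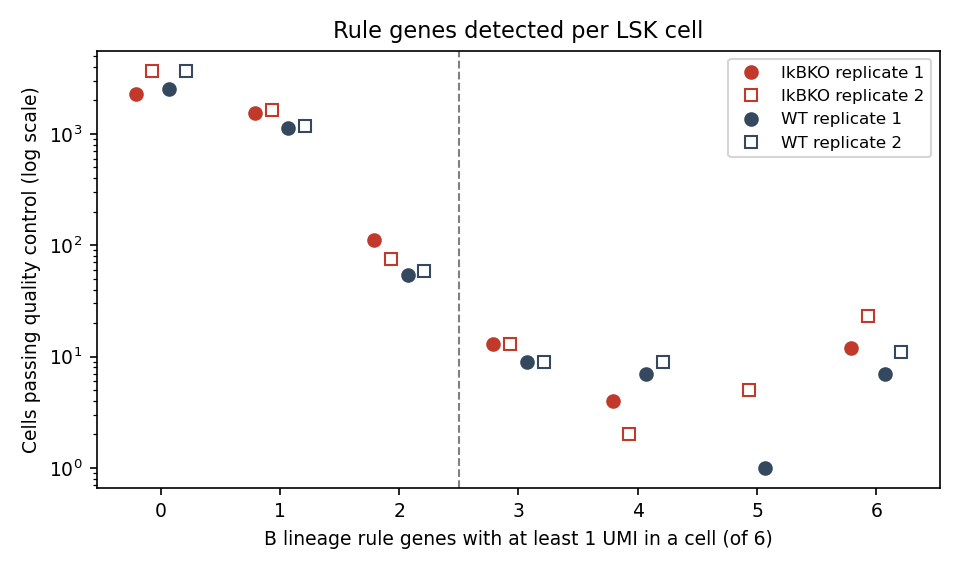
Number of passing cells (log axis) by the number of the 6 rule genes with a UMI, IkBKO beside WT. Counts fall from 12122 cells with none to 6 cells with 5 genes and stand at 53 cells with all 6.

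Genes that the rule did not use showed B lineage identity as a description, with no test because cells were chosen by their RNA. Leaving out the rule genes and Mpo, 45 of 4194 genes (1.07%) were at least 4-fold higher in members than in other LSK cells in all 4 pools, and 4 of 5104 (0.0784%) at least 4-fold lower. The highest included Pax5, with 106 and 94.7 CPM in IkBKO members and 109 and 106 CPM in WT members against at most 0.0958 CPM in other LSK cells, a ratio of 1223 (geometric mean over pools). Vpreb2, a further surrogate light chain gene, was 514 times higher and Lef1, a transcription factor of pro-B and pre-B cells, 260 times. Mzb1, a chaperone of immunoglobulin assembly, was 116 times higher, Rag1 64.0 times and Blnk, the adaptor below the pre-B cell receptor, 46.9 times. The 4 lower genes were the granule protease genes Elane (39.1 times) and Ctsg (10.3 times), the calprotectin gene S100a8 (20.8 times) and the platelet factor gene Pf4 (8.67 times). Of 18 lists of related genes, those with most members at least 4-fold higher were the B cell transcription factors with 6 of 18 (Pax5, Foxo1, Pou2af1, Lef1, Spib and Id3; median log2 ratio 1.62) and the immunoglobulin constant genes with 3 of 10 (Ighm, Igkc and Iglc3; median 4.89). The granulocyte and monocyte list had 3 of 11 at least 4-fold lower (Elane, Ctsg and S100a8; median −3.28). Over 6360 genes with at least 20 CPM on average in either group the median log2 ratio was 0.01.

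The nearest cells in the gate were 817 lymphoid progenitors with UMIs of both Dntt and Il7r that were not members. Relative to them 23 of 4192 genes (0.549%) were at least 4-fold higher in members in all 4 pools and 0 of 4880 (0%) lower, again as a description. Pax5 (83.3 times), Lef1 (50.9 times) and Mzb1 (17.2 times) were in both sets. Igkc, the κ light chain, led with a ratio of 228, but its levels were 477 and 46814 CPM in IkBKO members and 997 and 770 CPM in WT members, and the second of these rested on 3 cells described below. Of the V(D)J recombination genes 0 of 9 and of the early lymphoid genes 0 of 13 were past 4-fold in either direction, with median log2 ratios of 0.36 and −0.54 beside 0.05 over 6179 genes.

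The members were not of 1 stage. They were sorted into 4 classes by rules set after their values had been seen, so no class is tested against another and the genes used are no finding. A Jchain class had at least 10 Jchain UMIs. An Ms4a1 Ighd class had at least 2 of the 6 mature B cell genes Ms4a1, Ighd, Fcer2a, Cr2, Fcmr and Cd22, and more of these than of the 4 early genes Dntt, Rag1, Rag2 and Il7r. The rest were Vpreb1 Igll1-high with at least 5 UMIs of Vpreb1 and Igll1 together, or Vpreb1 Igll1-low. The classes held 54 Vpreb1 Igll1-high cells, 37 Vpreb1 Igll1-low cells, 23 Ms4a1 Ighd cells and 3 Jchain cells.

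Vpreb1 Igll1-high cells carried the genes of late pro-B and large pre-B cells. Pax5 was at 305 and 141 CPM in IkBKO cells and 287 and 189 CPM in WT cells of this class, and at no more than 53.1 CPM in any Vpreb1 Igll1-low pool. Lef1 was at 176 and 151 CPM in IkBKO cells and 192 and 150 CPM in WT cells, with 1 Vpreb1 Igll1-low cell of 37 carrying it. Mzb1 was at 1010 and 624 CPM in IkBKO cells and 1118 and 703 CPM in WT cells, and Mki67, a proliferation gene, at 465 and 706 CPM in IkBKO cells and 511 and 670 CPM in WT cells. For these 4 genes the ranges of the genotypes overlapped.

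Vpreb1 Igll1-low cells carried more RNA of the progenitor genes Flt3 and Cd34 and little of Pax5 and Lef1. Dntt, the terminal transferase, was at 2247 and 1674 CPM in IkBKO cells and 1037 and 1930 CPM in WT cells of this class, and at 753 and 897 CPM in IkBKO and 1294 and 983 CPM in WT Vpreb1 Igll1-high cells. Flt3, the receptor of lymphoid-primed progenitors, was at 226 and 105 CPM in IkBKO cells and 137 and 248 CPM in WT cells, against 16 to 64.1 CPM over the 4 Vpreb1 Igll1-high pools. Cd34, a surface protein of early progenitors, had 113 and 112 CPM in IkBKO and 351 and 266 CPM in WT Vpreb1 Igll1-low cells and 0 to 39.0 CPM in Vpreb1 Igll1-high cells. These are pool levels, and the class was mixed. Dntt was found in 13 of 14 and 9 of 10 IkBKO cells and in 4 of 6 and 5 of 7 WT cells. Ly6d, a lymphoid surface gene, had medians of 31.5 and 41 UMIs a cell in IkBKO and 0 and 13 in WT. Ms4a1 was found in 1 of 6 and 1 of 7 WT cells and in no IkBKO cell. The part of this mix in later tests of both Vpreb1 Igll1 classes together was not tested.

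**Figure D2:**
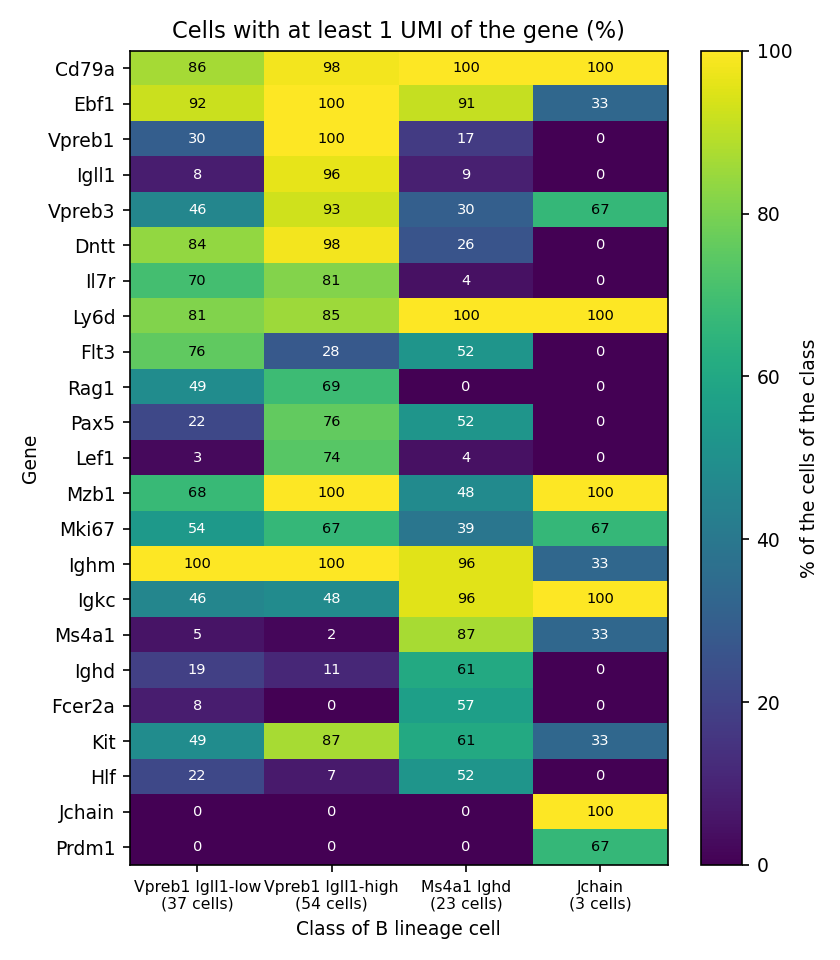
Share of cells with at least 1 UMI of each gene (colour and printed percent) in the 4 classes of members. Dntt is most frequent in the Vpreb1 Igll1 classes, Pax5, Lef1 and Mzb1 in Vpreb1 Igll1-high cells, and Ms4a1, Ighd and Fcer2a in Ms4a1 Ighd cells.

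Most Ms4a1 Ighd cells had light chain and MHC class II RNA, and the class had none of Rag1 or Rag2, which the class rule used. In their WT pools Ms4a1 stood at 269 and 182 CPM, Igkc at 1951 and 1487 CPM and Cd74, the invariant chain of MHC class II, at 2030 and 1590 CPM. Fcer2a (CD23), a mark of mature follicular B cells, had a UMI in 3 of 8 and 8 of 11 WT cells and in 0 of 1 and 2 of 3 IkBKO cells. The IkBKO cell of replicate 1 in this class also held 23 Vpreb1 and 17 Igll1 UMIs and no Ms4a1, so it met the rule while carrying surrogate light chain RNA. An IkBKO cell of replicate 2 in the class, with 18288 UMIs, held 3 Igll1 and 18 Mki67 UMIs. It had no UMI of Ms4a1, Cd74, H2-Aa, H2-Ab1 or H2-Eb1. Some cells of the class also held stem cell RNA: at least 3 UMIs of Hlf, Mecom, Procr and Mllt3 together were found in 0 of 1 and 1 of 3 IkBKO cells and in 2 of 8 and 6 of 11 WT cells, and in 0 of 54 Vpreb1 Igll1-high cells. Of other LSK cells 20.3 and 48.8% in IkBKO and 43.1 and 64.8% in WT held as much. The deepest WT cells of the class, with 42984 UMIs in replicate 1 and 45493 UMIs in replicate 2, held 40 and 48 stem cell UMIs, and whether such barcodes held 2 cells was not tested.

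The 3 Jchain cells all came from IkBKO replicate 2. They held 17524, 19106 and 32327 UMIs, of which Igkc took 8701, 6751 and 14026 and Jchain 1717, 656 and 773. Each was dominated by 1 heavy chain class, 1707 Igha UMIs in the first, 2339 Ighm UMIs in the second and 3794 Ighg1 UMIs in the third, and none had a Vpreb1 or Igll1 UMI. They carried 0, 1 and 0 UMIs of Ebf1, and each met the rule through Cd79a, Cd79b and 1 UMI or more of Vpreb3 or Ebf1. These are plasma cell genes. The 3 cells stay in the sums and tests over all members below and are not in the Vpreb1 Igll1 classes. They held 14, 120 and 214 of the 1391 Cd74 UMIs of IkBKO members. Of the 412 Ly6a UMIs of IkBKO members they held 2, 11 and 82.

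The share of B lineage cells was close in both genotypes. Members were 25 of 3962 LSK cells in IkBKO replicate 1 (0.631%, exact 95% binomial interval 0.409 to 0.930%) and 41 of 5383 in IkBKO replicate 2 (0.762%, 0.547 to 1.03%). In WT they were 22 of 3721 in replicate 1 (0.591%, 0.371 to 0.894%) and 29 of 4963 in replicate 2 (0.584%, 0.392 to 0.838%). The share was higher in IkBKO in both libraries, by 0.109 percentage points on average, with an exact two-sided permutation p of 0.5, the smallest that 2 libraries allow. Intervals cover counting error only. With every cell thinned to 3000 UMIs, which left out the 24 and 75 shallower IkBKO cells and the 33 and 111 shallower WT cells, the rule was met by 15 of 3938 and 27 of 5308 IkBKO cells and by 13 of 3688 and 16 of 4852 WT cells.

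The make-up by class differed more than the total. Ms4a1 Ighd cells were 1 of 25 (4.0%, interval 0.101 to 20.4%) and 3 of 41 (7.32%, 1.54 to 19.9%) of the IkBKO members, against 8 of 22 (36.4%, 17.2 to 59.3%) and 11 of 29 (37.9%, 20.7 to 57.7%) of the WT members. Vpreb1 Igll1-high cells were 10 of 25 and 25 of 41 IkBKO members and 8 of 22 and 11 of 29 WT members. Vpreb1 Igll1-low cells were 14 of 25 and 10 of 41 IkBKO members and 6 of 22 and 7 of 29 WT members. The IkBKO cells of the Ms4a1 Ighd class included those without Ms4a1 described above. The classes were set after the values were seen and the difference in make-up was not tested. Thinning to 3000 UMIs left out 3 and 1 IkBKO members and 5 and 5 WT members. The Ms4a1 Ighd class, whose rule rests on genes with few UMIs a cell, then held 2 and 0 IkBKO cells and 1 and 3 WT cells, too few for a comparison at equal depth.

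**Figure D3:**
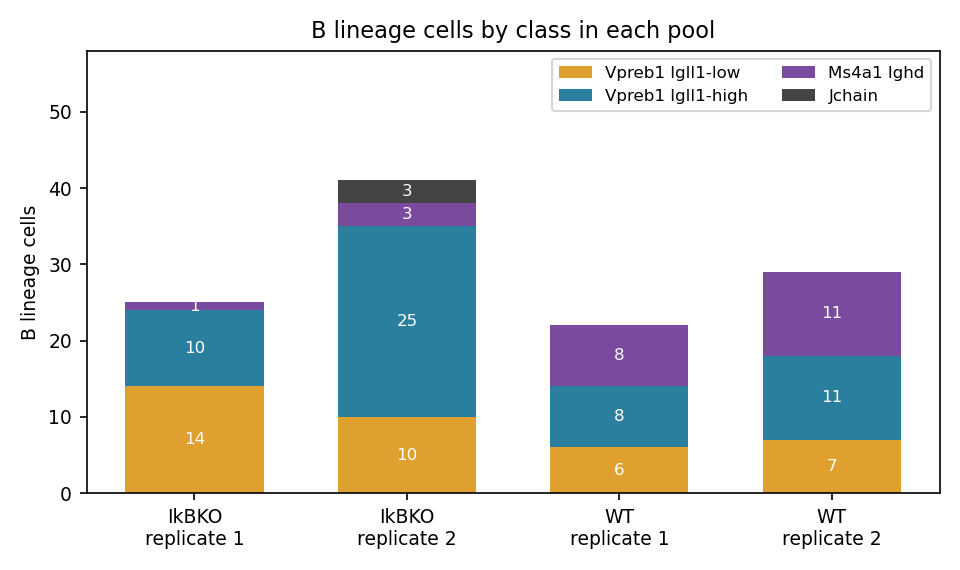
Number of members of each class in the 4 pools, IkBKO left of WT. Ms4a1 Ighd cells number 1 and 3 in the IkBKO pools and 8 and 11 in the WT pools, and the 3 Jchain cells lie in IkBKO replicate 2.

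RNA of IκB genes was read first as a check of the genotype labels. Nfkbie, which encodes IκBε, had 4.82 and 0 CPM in IkBKO members and 13.1 and 15.6 CPM in WT members, and 2.03 and 2.00 CPM in IkBKO and 9.09 and 12.0 CPM in WT other LSK cells. Nfkbib, which encodes IκBβ, had 9.64 and 6.31 CPM in IkBKO members and 21.9 and 18.2 CPM in WT members, and 6.63 and 7.95 CPM in IkBKO and 19.2 and 16.1 CPM in WT other LSK cells. Nfkbia, which encodes IκBα, had 106 and 80.5 CPM in IkBKO members and 91.8 and 83.0 CPM in WT members. Nfkbie and Nfkbib were the lower ones in both IkBKO pools, with few UMIs in the members, whereas the Nfkbia ranges overlapped. A 3′ tag can lie outside a deleted part, and Nfkbie and Nfkbib were too low for the test within members.

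The genotypes were compared by edgeR's quasi-likelihood test on counts summed over the members of each pool, with the library as a block and Benjamini-Hochberg adjustment over 4505 genes, and changes are given as log2 of IkBKO over WT, each with its standard error (SE). At an adjusted p of at most 0.05, 22 genes (0.488%) were higher and 24 (0.533%) lower in IkBKO members. The higher set held some MHC class I and class II genes and the lymphoid surface genes Ly6a, Ly6d and Ltb. The lower set held stem cell genes and the mature B cell genes Ms4a1 and Ighd. The count of 46 rested on the settings: it was 21 without the block, 12 by DESeq2 and 5 in members with at least 4 rule genes. Leaving out 1 pool moved it both ways, and down without WT replicate 2. Those runs also had no block and 1 pool in a genotype, so the 2 changes cannot be told apart and their counts are not given.

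Ly6a (chr15:74994877-74998031) encodes Sca-1, one of the proteins on which the gate was sorted. It had 819.5 and 382 CPM in IkBKO members and 61.2 and 46.7 CPM in WT members, so the groups did not overlap (3.44 ± 0.27 SE, edgeR adjusted p = 0.00024), and its call held in every alternative run within members, at 3.02 to 4.02. Ly6d, a mark of progenitors committed to the B lineage, had 2401 and 1712 CPM in IkBKO members and 372 and 555 CPM in WT members (2.20 ± 0.19, edgeR adjusted p = 0.00029). Ltb (chr17:35194439-35196320), the lymphotoxin β ligand, had 665 and 322 CPM in IkBKO members and 127 and 129.7 CPM in WT members (1.88 ± 0.26, edgeR adjusted p = 0.0064), a call lost without WT replicate 2 (1.98). All 3 were higher in IkBKO in both libraries and were spread over cells, with a UMI in 52, 62 and 54 of the 66 IkBKO members.

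Some MHC genes were also higher. H2-Q7, a class I-like chain, had 786 and 323 CPM in IkBKO members and 209.9 and 169 CPM in WT members (1.48 ± 0.24, edgeR adjusted p = 0.018), although near-identical class I genes can share reads. B2m, the class I light chain, had 2304 and 1680 CPM in IkBKO members and 1303 and 1087 CPM in WT members (0.80 ± 0.12, edgeR adjusted p = 0.011). Cd74 had 1605 and 1669 CPM in IkBKO members and 984 and 731 CPM in WT members (1.04 ± 0.16, edgeR adjusted p = 0.011). The class II chains H2-Aa (1.09), H2-Ab1 (0.99) and H2-Eb1 (1.02) had log2 changes of like size. The class I chains H2-K1 (0.49 ± 0.13, edgeR adjusted p = 0.16) and H2-D1 (0.55 ± 0.14, edgeR adjusted p = 0.13) were not called in members.

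Other higher genes were Myl10, a regulatory myosin light chain, with 530.3 and 625 CPM in IkBKO members and 157 and 187 CPM in WT members (1.83 ± 0.21), and Ccnd1, cyclin D1, with 86.8 and 66.3 CPM in IkBKO members and 17.5 and 18.2 CPM in WT members (2.11 ± 0.42). Ehd3, an endocytic recycling protein, rose by 4.65 ± 0.89, with a single WT UMI. Gdpd3 had 35 UMIs in 13 IkBKO members and none in WT members, at least 8.52-fold higher against a floor of 3 counts over the WT group. Prg2, the eosinophil major basic protein gene, rose by 5.37 ± 0.70 but lay in 6 cells, 1 of which held 42.6% of its UMIs. AA465934, a noncoding transcript at chr11:83291699-83294632 named after its values were seen, rose by 4.14 ± 0.55 and was carried by 42 of 66 IkBKO members. The adjusted p-values of these 6 genes in edgeR's quasi-likelihood test ran from 0.0019 to 0.043.

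Among the lower genes, Ms4a1 had 9.64 and 11 CPM in IkBKO members and 131 and 90.8 CPM in WT members (−3.12 ± 0.43, edgeR adjusted p = 0.0057). Ighd, the δ heavy chain, had 9.64 and 9.47 CPM in IkBKO members and 91.8 and 49.3 CPM in WT members (−2.55 ± 0.49, edgeR adjusted p = 0.036). Both genes define the Ms4a1 Ighd class, which held 4 IkBKO and 19 WT cells. Hlf, a stem cell transcription factor, had 14.5 and 26.8 CPM in IkBKO members and 179 and 278 CPM in WT members (−3.29 ± 0.31, edgeR adjusted p = 0.00051). Angpt1 (−3.15), Meis1 (−1.91), Gcnt2 (−2.39), Cd34 (−2.06) and Kit (−1.50) were lower too, all genes of stem cells and early progenitors.

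The stem cell markers Hlf, Mecom, Procr and Mllt3 summed to 38.6 and 58.4 CPM in IkBKO members and 223 and 355 CPM in WT members. In the Vpreb1 Igll1 classes alone the same sum was 39.2 and 59.4 CPM in IkBKO and 39.0 and 66.6 CPM in WT, with overlapping ranges. The part of the Ms4a1 Ighd cells with stem cell RNA in the stem cell and Kit results was not tested beyond this. Wfdc17, a secreted protease inhibitor-like protein, had 0 and 1.58 CPM in IkBKO members and 201 and 64.8 CPM in WT members (−5.95 ± 0.65). Hbb-bt, a β-globin, fell by 4.15 on the log2 scale, but 1 WT cell held 94.6% of its WT UMIs. Klf2 (−3.09), Egr1 (−2.92), Fos (−2.52) and Cd63 (−2.75) completed the 10 most changed lower genes.

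To see whether these differences held without the Ms4a1 Ighd and Jchain cells, the same test was run on the Vpreb1 Igll1-low and Vpreb1 Igll1-high cells together, 24 and 35 cells in IkBKO and 14 and 18 cells in WT, an alternative added after the data had been seen. MHC class II genes, Ly6a and Ltb then differed by larger factors. Of the 3140 genes in this test, IkBKO cells had 35 (1.11%) higher and 11 (0.350%) lower. Of the genes called higher, 15 were shared with the test of all members (68.2% of its 22 and 42.9% of these 35). Of those called lower only Cd34 and the gene model Gm47283 were shared (8.33% of 24 and 18.2% of 11). A gene that was not shared may have failed the filter on low counts here, which 4505 genes passed in all members. Of the stem cell list 1 gene was tested here and 4 in all members. The shares therefore do not show whether the unshared differences held. edgeR's robust fit found little difference in spread between most genes here (median of 3147 total degrees of freedom a gene), so the p-values of most genes rest on 1 shared spread, and those of called genes are not given singly. Ly6d, with a larger SE than genes of fewer UMIs, was an exception. The genes named as changed below had adjusted p-values of at most 0.047.

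Cd74 stood at 1613 and 820.5 CPM in IkBKO and 164 and 14.3 CPM in WT cells of these classes (4.07 ± 0.26). H2-Aa (chr17:34282744-34287823) stood at 687 and 261 CPM in IkBKO and 54.6 and 9.52 CPM in WT (4.03 ± 0.37), and H2-Eb1 at 677 and 220.5 CPM in IkBKO and 39.0 and 4.76 CPM in WT (4.50 ± 0.41). H2-Ab1 differed less, with 706 and 395 CPM in IkBKO and 179 and 99.9 CPM in WT (2.03 ± 0.26). In all 4 genes both IkBKO pools were above both WT pools.

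Ly6a stood at 829 and 267 CPM in IkBKO and 46.8 and 23.8 CPM in WT (3.9 ± 0.35), and Ltb at 667 and 353 CPM in IkBKO and 46.8 and 28.6 CPM in WT (3.77 ± 0.34). Serpina3g, an intracellular protease inhibitor, stood at 181.5 and 49.8 CPM in IkBKO and 7.80 and 4.76 CPM in WT (4.01 ± 0.68). H2-Q7 stood at 770.0 and 341 CPM in IkBKO and 234 and 119 CPM in WT (1.67 ± 0.25), with smaller rises of B2m (0.54), H2-K1 (0.57) and H2-D1 (0.53). Il18r1, an interleukin 18 receptor chain (2.26), Gimap7, a lymphocyte GTPase (2.05), Cd52 (1.37), Pim1, a kinase induced by IL-7 signalling (1.14) and Igkc (0.93) were higher too. AA465934 had 110 UMIs in 40 of 59 IkBKO cells and none in WT cells, at least 17.1-fold higher against a floor of 3 counts over the WT group.

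The lower genes of these classes were led by Rnase12 (−2.95 ± 0.77) and Ifi27l2a, an interferon-inducible gene, with 230.5 and 32.6 CPM in IkBKO and 593 and 224 CPM in WT (−1.85 ± 0.27), where the ranges overlapped between libraries. Crip1, a LIM domain protein, had 1417 and 1089 CPM in IkBKO and 2371 and 2194 CPM in WT (−0.83 ± 0.12). Rgcc (−1.35), Cd34 (−1.27), Hjurp, a centromere histone chaperone (−1.20), Hmgb1 (−0.46) and Ptma (−0.31) were also lower.

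Several genes were not called in these classes. Ly6d had 2432 and 1810 CPM in IkBKO and 351 and 795 CPM in WT (1.89 ± 0.70, edgeR adjusted p = 0.85), without overlap between the genotypes. Kit had 93.2 and 78.6 CPM in IkBKO and 140 and 167 CPM in WT (−0.84 ± 0.36, edgeR adjusted p = 0.40). Ighm, the μ heavy chain, had 1162 and 872 CPM in IkBKO and 1108 and 871 CPM in WT (0.08 ± 0.15). Nfkbia had 103 and 74.8 CPM in IkBKO and 70.2 and 61.9 CPM in WT (0.44 ± 0.39, edgeR adjusted p = 0.95).

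**Figure D4:**
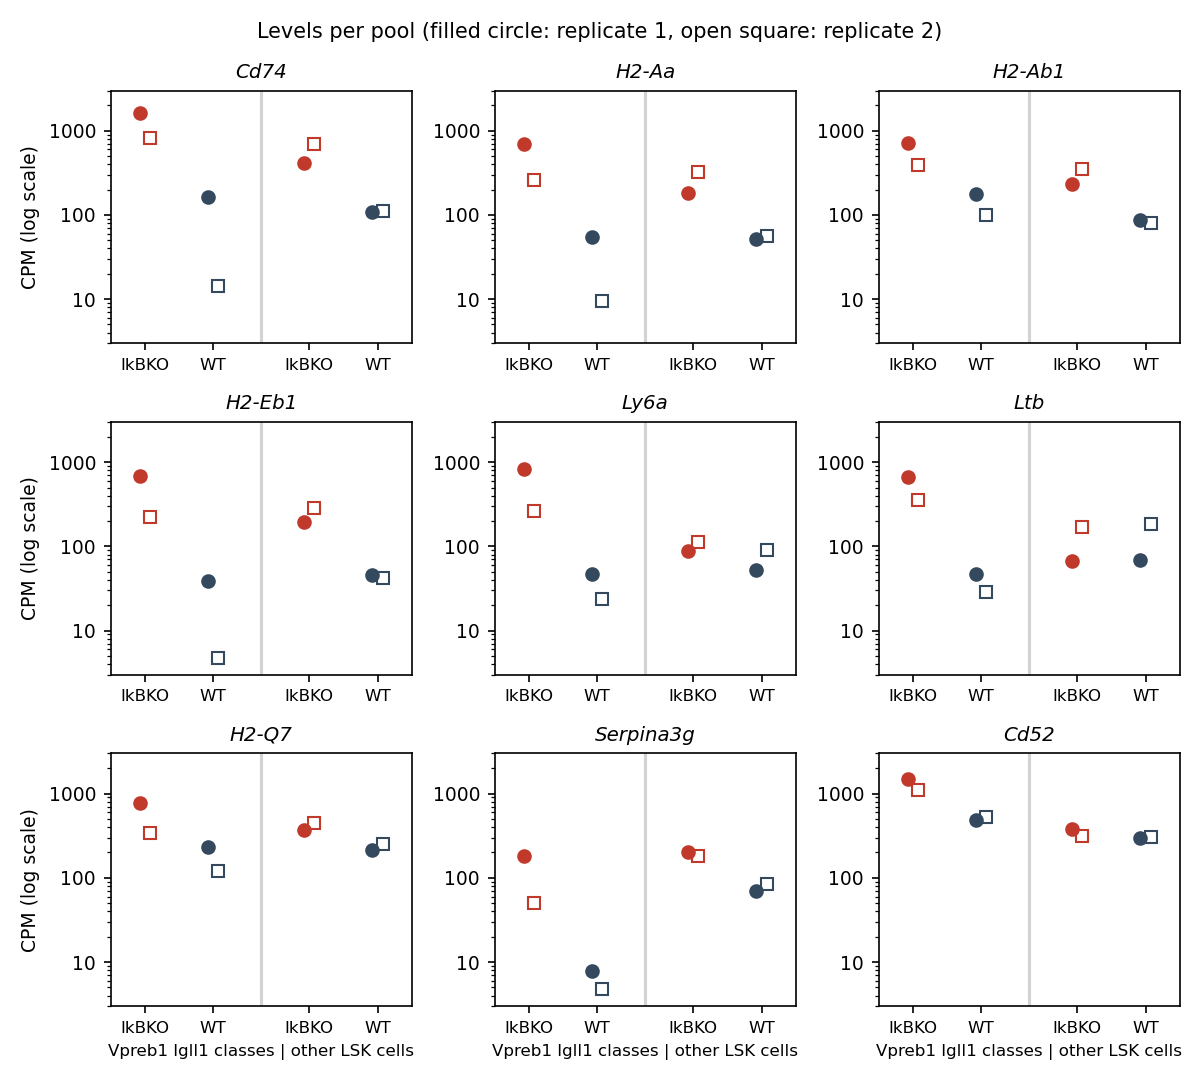
Level (CPM, log axis, 1 point for each pool) of 9 genes in the Vpreb1 Igll1 classes and in other LSK cells, IkBKO left of WT. Cd74, H2-Aa, H2-Eb1, Ly6a and Ltb of the Vpreb1 Igll1 classes stand higher in both IkBKO pools than in both WT pools.

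In the Vpreb1 Igll1-high class the shares of cells with Cd74, H2-Aa and H2-Eb1 were higher in IkBKO in both libraries. The share with H2-Ab1 was not ordered by genotype at full depth. Levels of this class rested in part on 1 cell of IkBKO replicate 1. That cell held 61 of 114 Cd74, 30 of 42 H2-Aa, 41 of 53 H2-Eb1 and 22 of 32 Ly6a UMIs of its pool. Cd74 had a UMI in 10 of 10 and 21 of 25 IkBKO cells and in 1 of 8 and 0 of 11 WT cells, where the count of 0 allows a share of cells with a UMI of up to 28.5% by the exact interval and sets no limit on cells that express the gene. H2-Aa had one in 5 of 10 and 13 of 25 IkBKO cells and in 0 of 8 and 1 of 11 WT cells, and H2-Eb1 in 4 of 10 and 8 of 25 IkBKO cells and in no WT cell. H2-Ab1 had one in 6 of 10 and 21 of 25 IkBKO cells and in 6 of 8 and 8 of 11 WT cells, so the libraries went in opposite orders. Cd79a was found in 10 of 10 and 24 of 25 IkBKO cells and in all 8 and 11 WT cells, and Ighm in every cell of the class. Mpo-high cells, as a background, had a Cd74 UMI in 24.9 and 21.8% in IkBKO and in 6.78 and 17.5% in WT at greater depth.

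Ltb had a UMI in 10 of 10 and 20 of 25 IkBKO cells of the class and in 2 of 8 and 3 of 11 WT cells, and Ly6a in 5 of 10 and 21 of 25 IkBKO cells and in 1 of 8 and 3 of 11 WT cells. Spib, a transcription factor of B cells and plasmacytoid dendritic cells, had one in 9 of 10 and 13 of 25 IkBKO cells and in 0 of 8 and 1 of 11 WT cells. Igkc had one in 8 of 10 and 16 of 25 IkBKO cells and in 0 of 8 and 2 of 11 WT cells. For each of these genes the share was higher in IkBKO in both libraries. Median depths of the class were 4277 and 13541 UMIs in IkBKO and 5927 and 9881 UMIs in WT.

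With cells thinned to 3000 UMIs, 8 and 24 IkBKO cells and 6 and 10 WT cells of the class remained. Cd74 was then found in 7 and 14 IkBKO cells and in no WT cell, Ltb in 7 and 15 IkBKO cells and in 1 and 0 WT cells, and Igkc in 5 and 12 IkBKO cells and in no WT cell. Ly6a was found in 3 and 12 IkBKO cells and 0 and 2 WT cells, and Cd79a in 8 and 22 IkBKO cells and 6 and 9 WT cells. For Cd74, Ltb, Igkc and Ly6a the share stayed higher in IkBKO in both libraries. Spib was found in 3 and 1 IkBKO cells and no WT cell, near the limit of detection, and H2-Ab1 in 5 and 11 IkBKO cells and 1 and 3 WT cells.

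**Figure D5:**
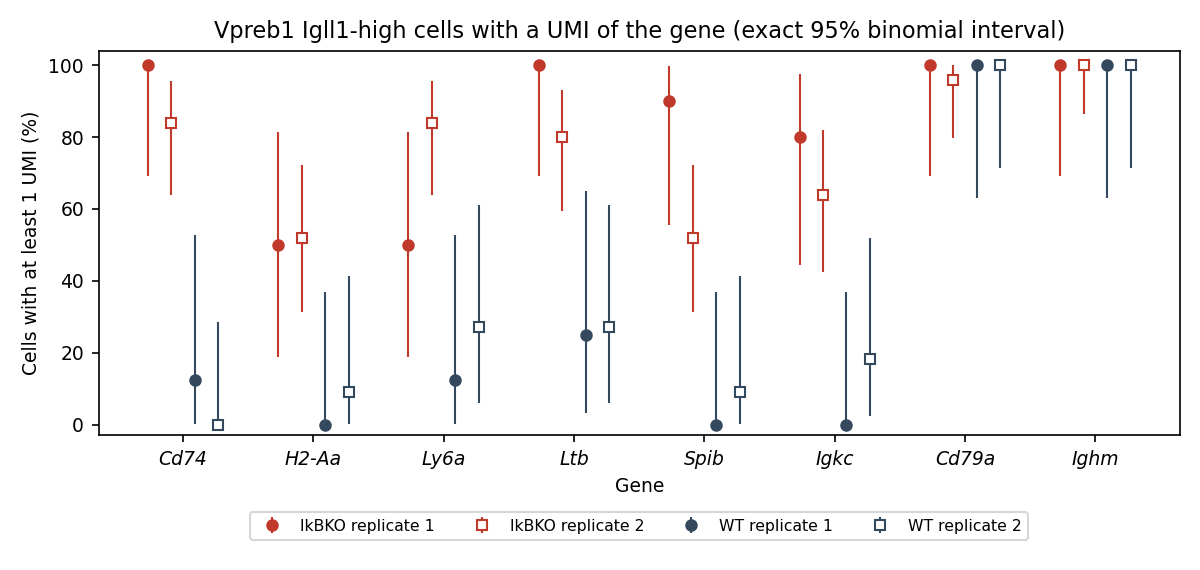
Share of Vpreb1 Igll1-high cells with at least 1 UMI of each gene in each pool, IkBKO beside WT, with exact 95% binomial intervals. Cd74 is found in 100 and 84.0% of IkBKO cells and in 12.5 and 0% of WT cells, while Cd79a is found in 96.0% or more of every pool.

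Tested on the Vpreb1 Igll1-high cells alone, 18 of 1753 genes were higher and 5 lower in IkBKO, also added after the data had been seen. Igkc stood at 1298 and 332 CPM in IkBKO and 0 and 13.0 CPM in WT cells of this class. Ly6d stood at 817 and 1560 CPM in IkBKO and 303 and 260 CPM in WT (2.21). It was called here, though not in the Vpreb1 Igll1 classes together. Its median was 3 and 12 UMIs a cell in IkBKO and 1.5 and 2 UMIs in WT. The highest cells held 18 and 110 UMIs in IkBKO and 10 and 12 UMIs in WT. Most genes of this test again shared 1 spread (median of 1759 total degrees of freedom a gene). In Vpreb1 Igll1-low cells Igkc had the other order, with 56.5 and 330 CPM in IkBKO and 488 and 602 CPM in WT, on 2 and 8 IkBKO cells and 4 and 3 WT cells with a UMI.

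The promoters of Ltb, H2-Aa and H2-Q7 are shown because these genes were called higher in both tests and hold a form of the κB motif, read as GGG, 2 bases of any kind, TT, 1 base of any kind and CC, on either strand. Capitals mark the match, which begins 87, 131 and 133 bases before the RefSeq start. The windows (GRCm38.p6) are chr17:35194257-35194506 (plus strand), chr17:34287824-34288073 (minus strand) and chr17:35438905-35439154 (plus strand).
Ltb: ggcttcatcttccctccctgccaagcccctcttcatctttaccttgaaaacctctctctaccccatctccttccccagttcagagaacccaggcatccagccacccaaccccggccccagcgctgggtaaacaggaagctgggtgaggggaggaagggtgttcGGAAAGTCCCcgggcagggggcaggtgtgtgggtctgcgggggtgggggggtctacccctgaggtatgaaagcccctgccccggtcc
H2-Aa: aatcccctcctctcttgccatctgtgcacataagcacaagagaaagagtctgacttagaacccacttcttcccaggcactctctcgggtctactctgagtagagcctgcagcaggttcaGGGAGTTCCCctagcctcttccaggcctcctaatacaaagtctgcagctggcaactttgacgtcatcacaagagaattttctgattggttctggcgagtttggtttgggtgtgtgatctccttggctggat
H2-Q7: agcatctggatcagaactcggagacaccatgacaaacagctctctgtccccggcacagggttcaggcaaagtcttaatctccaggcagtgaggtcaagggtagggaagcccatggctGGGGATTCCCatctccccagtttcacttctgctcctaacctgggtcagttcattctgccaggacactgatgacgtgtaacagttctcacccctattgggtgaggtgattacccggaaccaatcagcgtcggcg
This motif was in 4.11% of all 32851 windows and in 5.6% of the windows of genes tested in the members. Of the genes called higher in members 14 had a window, and 5 of them held the motif (35.7%: B2m, Ehd3, H2-Aa, H2-Q7 and Ltb), against 2 of 16 of those called lower. In the Vpreb1 Igll1 classes it was 10 of 26 called higher (38.5%) and 0 of 8 called lower, beside 5.44% of genes tested. Of the 26, CCCNNGGG was in as many, 10 (38.5%), beside 11.8% of all windows, and CAGNTG in 14 (53.8%), beside 44.8%. Among the 14 called higher in members they were in 3 (21.4%) and 7 (50.0%). The 3 motifs were counted separately, overlapping or not. H2-Q7, H2-K1 and H2-D1 are paralogs, so their windows are not independent, and a match is a run of letters, not a shown site.

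Calls between the genotypes were also counted by list. At 0.488% of genes called higher and 0.533% lower in members, and 1.11% and 0.350% in the Vpreb1 Igll1 classes, lists of this size are near the background with 0 calls, and such counts are no result about the list. Of the pre-B cell receptor and B cell receptor signalling genes 0 of 12 tested were called in members (median log2 change −0.20), of the B cell transcription factors 0 of 16 (0.00), of the V(D)J recombination genes 0 of 4 (0.41) and of the IL-7 signalling genes 0 of 9 (0.11), beside −0.01 over all genes. In the Vpreb1 Igll1 classes these lists had 0 of 9 (−0.09), 0 of 16 (−0.16), 0 of 4 (−0.19) and, with Pim1 higher, 1 of 4 (−0.13). The list of immature and mature B cell genes stood apart in its counts, with 5 of 9 higher (Cd74, H2-Aa, H2-Ab1, H2-Eb1 and Cd52) and Ms4a1 lower in members (median 0.99), and 5 of 6 higher and 0 lower in the Vpreb1 Igll1 classes (median 3.03). Those 5 are class II genes and the small surface antigen gene Cd52, and the receptor genes of the list were not among them.

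In the early lymphoid list Ly6d was higher and Cd34 and Kit lower of 12 tested in members. Of the stem cell list 3 of 4 were lower (median −2.15), and of the granulocyte list 1 of 3, Prtn3 (−1.58), a neutrophil protease, while Mpo of the same cells was part of the rule. Of the plasmacytoid dendritic cell list 1 of 6 was higher in members, Atp1b1 (1.60), and 1 of 5 in the Vpreb1 Igll1 classes, Cox6a2 (1.98). Of the immunoglobulin constant genes 1 of 6 was lower in members, Ighd, and 1 of 3 higher in the Vpreb1 Igll1 classes, Igkc. The lists of pro-B surface genes (4 tested), plasma cell genes (2), T and innate lymphoid genes (2), G1/S genes (13), G2/M genes (14), the IκB and NF-κB family (4) and survival genes (1) had no gene called, and no megakaryocyte or erythroid gene passed the filter on low counts. In simulated data of this size, the test called 59.6% of 4-fold and 5.4% of 2-fold changes, although smaller changes of abundant genes such as B2m were called in the data.

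Whether the genotype acted differently on B lineage cells than on other LSK cells was tested as an interaction in edgeR over 13717 genes, with 22 (0.160%) called higher and 12 (0.0875%) called lower. The 34 calls became 138 without IkBKO replicate 2, 63 without IkBKO replicate 1, 14 without WT replicate 1 and 6 without WT replicate 2, and 1 without the block and 13 by DESeq2. Here too most genes shared 1 spread (median of 27448 total degrees of freedom a gene, and 14.0 without the block), so the p-values of called genes are not given singly. The values are the log2 genotype change in members minus that in other LSK cells. Ly6a differed by 2.93 ± 0.44, since other LSK cells had 87.2 and 114 CPM in IkBKO and 52.4 and 90.7 CPM in WT, with overlapping ranges, and its call was lost without WT replicate 2 (2.30) and without the block (2.98). Ltb differed by 1.98 ± 0.42, with 67.6 and 172 CPM in IkBKO and 68.9 and 183 CPM in WT other LSK cells. Tmem121 differed by 3.84 ± 0.51, with 96.4 and 72.6 CPM in IkBKO members and 17.5 and 41.5 CPM in WT members but 2.76 and 4.50 CPM in IkBKO and 15.2 and 22.5 CPM in WT other LSK cells, so the genotypes were in opposite orders.

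In the Vpreb1 Igll1 classes 5 of 13622 genes (0.0367%) were called higher and 0 lower (0%), and all 5 were among the 22 called in members: Ltb (3.93 ± 0.57), Tmem121 (3.61 ± 0.60), Ly6a (3.34 ± 0.58), Il12a, the interleukin 12 p35 chain (2.44 ± 0.48), and Cox6a2, a cytochrome c oxidase subunit (2.23 ± 0.49). At an unadjusted p under 0.05 there were 364 genes. For the class II genes the interaction was not called in these classes, with Cd74 at 1.72 ± 0.51 (edgeR adjusted p = 0.50). In simulated data the interaction test over all members called 19.8% of 4-fold and 0.0% of 2-fold changes. An interaction that was not called therefore says little of a like effect in both groups of cells. Cd74 was also higher in IkBKO outside the B lineage, with 416 and 688 CPM in IkBKO and 109 and 111 CPM in WT other LSK cells, and 501 and 391 CPM in IkBKO and 49.5 and 77.8 CPM in WT among the Dntt Il7r progenitors. Over all members the interaction of Cd74 had the other sign, −1.32 ± 0.33 and called, where the WT pools included the Ms4a1 Ighd cells.

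Dntt differed by 1.92 ± 0.36 over all members and was called. It had 1779 and 925 CPM in IkBKO members and 765 and 853 CPM in WT members, but 82.7 and 152 CPM in IkBKO and 250 and 279 CPM in WT other LSK cells. Il7r, the interleukin 7 receptor, differed by 1.57 ± 0.37 and was called. Without the other classes, in Vpreb1 Igll1 cells alone, Dntt differed by 1.46 ± 0.39 (edgeR adjusted p = 0.21) and Il7r by 0.88 ± 0.44 (edgeR adjusted p = 1.0), neither called. Ighm differed by 2.28 ± 0.33, but 76.1% of its IkBKO UMIs lay in 1 Jchain cell.

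Markers of other cell types were read in the members as a measure of mixed RNA. The 7 T and innate lymphoid markers summed to 72.3 and 47.3 CPM in IkBKO members and 26.2 and 38.9 CPM in WT members, against 21.8 and 33.3 CPM in IkBKO and 43.1 and 45.1 CPM in WT other LSK cells. Of these the T cell receptor genes Cd3e, Cd3d and Cd3g were at 0 in all 4 pools of members, so the sum came from Lck, Gata3, Tcf7 and Thy1. The 5 megakaryocyte and erythroid markers summed to 4.82 and 191 CPM in IkBKO members and 26.2 and 44.1 CPM in WT members, against 376 and 492 CPM in IkBKO and 222 and 110 CPM in WT other LSK cells. Most of the 121 UMIs in IkBKO replicate 2 lay in 1 Vpreb1 Igll1-high cell, and in the Vpreb1 Igll1 classes of WT all 5 were at 0. The part of these sums in the genotype results was not tested. The 4 stromal markers were at 0 apart from 1 UMI in WT replicate 1. Of 5 plasmacytoid dendritic cell markers Klk1 was at 0 in all pools and Siglech in WT replicate 1, and the 5 summed to 593 and 267 CPM in IkBKO members and 157 and 98.5 CPM in WT members, against 26.3 and 56.8 CPM in IkBKO and 43.5 and 54.2 CPM in WT other LSK cells. In the Vpreb1 Igll1 classes their sum was 593 and 297 CPM in IkBKO and 273 and 152 CPM in WT, so this sum moved with the genotype beside the class II, Spib and Cox6a2 results, and its part in them was not tested. The 8 granulocyte and monocyte markers summed to 222 and 153 CPM in IkBKO members and 564 and 259 CPM in WT members, against 6410 and 1989 CPM in IkBKO and 3620 and 1742 CPM in WT other LSK cells. The lesser hashtag took a median of 7.39 and 5.52% of tag counts in IkBKO members and 30.2 and 26.8% in WT members, close to 8.35 and 7.18% in IkBKO and 32.4 and 29.2% in WT other LSK cells.

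Members with a UMI in at least 2 of 16 G2/M genes were 10 of 25 (40%) and 33 of 41 (80.5%) in IkBKO and 11 of 22 (50.0%) and 17 of 29 (58.6%) in WT. The libraries went in opposite orders, and the mean difference of 5.93 percentage points had an exact permutation p of 1.00. In other LSK cells the shares were 64.6 and 52.1% in IkBKO and 44.4 and 32.7% in WT. These shares move with depth, and the direction of the mean difference turned when cells were thinned to 3000 UMIs (−4.34 points).

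Antibody tags for surface proteins were in the files of replicate 1 alone. Flt3 protein had median counts of 124 in IkBKO members and 128 in WT members, against 121 in IkBKO and 126 in WT other LSK cells. CD48 had medians of 518 in IkBKO members and 486 in WT members, against 568 in IkBKO and 475 in WT other LSK cells, and CD150 medians of 112 in both against 109 in IkBKO and 111 in WT other LSK cells. All member medians lay between the 25th and 75th percentiles of other LSK cells, 422 to 716 counts for CD48 in IkBKO and 352 to 618 in WT. With 2 pools the smallest two-sided p is 0.5.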

How the data were processed

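The deposited matrices hold raw UMI counts per gene and barcode for 32285 genes, with counts of antibody tags, and were used as the authors deposited them. The matrices name Cell Ranger 6.0.0, per the file headers, and Cell Ranger 7.0, Seurat 4.3.0 and the build mm10 stand in the submitters' processing notes. A table deposited by the authors lists the quality call and genotype of every barcode, by rules that the labels do not state. No further cell filter and no doublet caller were used. Members above the 95th percentile of UMIs of their library were left out in an alternative. No member barcode passed in the other library, of 39 barcodes that passed in both.

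Counts were summed over the members of each replicate and genotype, which gave 207436 and 633809 UMIs in IkBKO and 228661 and 385633 UMIs in WT. Genes were tested in edgeR 4.0.16 (R 4.3.3) by the quasi-likelihood F test, robust, with TMM scaling, filterByExpr and the replicate as a block, with the Benjamini-Hochberg adjusted p called at 0.05. The block was used because the labels say that the conditions of a replicate were run together; deviations from the genotype means had a correlation of 0.175 over 4512 genes between the pools of replicate 1. The 7 rule genes were left out of all calls. The interaction test used members and other cells of each pool with the pool as a block. DESeq2 1.42.0 was an alternative. Ratios without a test needed 4-fold in all 4 pools, 20 CPM in every pool of the higher group and a floor of 3 counts per pool. The test was checked on simulated data. Genes named are the 10 largest called changes each way (5 for the interaction) with the same direction in both libraries, the members of 18 lists, and those said to be named after their values were seen. The members and lists were chosen with earlier results of these data known. Gene positions come from GENCODE release 21 of mouse and promoter sequences from RefSeq (GRCm38.p6), and these differ on some gene starts. The Vpreb1 window lies inside the GENCODE gene model (chr16:16868403-16870843), and the end of the Ltb window lies past the GENCODE start of Ltb. Python 3.11.15 was used for the rest.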

Additional observations from a re-analysis of the deposited data

Results flagged for a closer look

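The genotype effect differed between B lineage cells and other LSK cells, by the interaction test in edgeR, for these named genes, each given as the log2 change in members minus that in other LSK cells. The higher ones were Ccl5 (12.39, a fitted value with 36 UMIs in 16 IkBKO members and 0 in WT members), Prg2 (5.56, with 42.6% of its UMIs in 1 cell), Tmem121 (3.84), Ly6a (2.93) and S100a9 (2.83, on 12 UMIs in IkBKO members). The lower ones were Ms4a1 (−4.81), Slc18a2 (−3.84), Tnfrsf1a (−3.77), Gng11 (−3.19) and Ccl9 (−3.02). These 5 had 65, 21, 20, 22 and 18 UMIs in WT members. Of those UMIs 6, 1, 4, 1 and 1 lay in the Vpreb1 Igll1 classes and the rest in Ms4a1 Ighd cells. The part of that class in the 5 values was not tested. Without the block 9 of the 10 named genes lost the call. In the Vpreb1 Igll1 classes Ly6a and Tmem121 alone of these 10 were called. Ccl5 was at least 8.76-fold higher in IkBKO members against a floor of 3 counts over the WT group.

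Barcodes that failed the quality call carry no genotype, and some of them met the gene rule. In replicate 1 they were 174 of 1639 failing barcodes (10.6%, exact 95% interval 9.17 to 12.2%), against 0.612% of passing ones, with a median of 2469 UMIs against 8511 UMIs over all failing barcodes. In replicate 2 they were 117 of 14441 (0.810%, 0.670 to 0.970%), against 0.677% of passing ones, with a median of 8227 UMIs against 1969 UMIs over all failing barcodes. They are in no comparison.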

How the results depend on the processing

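The named genes made 30 entries, 20 within members and 10 for the interaction, with Ly6a, Prg2 and Ms4a1 in both. Of their 304 alternative values, 208 kept direction and call, 96 kept direction and lost the call and 0 turned. A gene that failed the filter on low counts in a run has no value there. In the Vpreb1 Igll1 classes 5 of the 20 within members kept the call, 3 lost it and the rest had no value. The test within members called 46 genes, and 21 with no replicate block, 12 by DESeq2 with the block, 146 with no filter on low counts, 5 with at least 4 of 6 rule genes, 71 without the Jchain cells and 23 in Vpreb1 Igll1-high cells alone. Leaving out 1 pool gave 13 (without WT replicate 2) to 118 (without IkBKO replicate 1), with 108 without IkBKO replicate 2, the remaining pool of that genotype being assumed to vary like the others. The interaction test called 34 genes, and 1 with no replicate block, 13 by DESeq2 with the block, 5 in the Vpreb1 Igll1 classes, and 6 (without WT replicate 2) to 138 (without IkBKO replicate 2) with 1 pool left out, with 63 without IkBKO replicate 1 and 14 without WT replicate 1. At an unadjusted p under 0.05 there were 424 and 529 genes in edgeR. Genes at least 4-fold from other LSK cells, 45 higher and 4 lower, became 94 and 15 at 2-fold, 29 and 1 at 8-fold and 8 and 1 at a minimum of 100 CPM. Those from Dntt Il7r progenitors, 23 higher and 0 lower, became 60 and 5 at 2-fold, 4 higher at 100 CPM, 24 (without WT replicate 1) to 37 (without IkBKO replicate 2) higher with 1 pool left out and 1 lower without IkBKO replicate 1. The difference in cycling share, 5.93 points, was −3.49 with at least 1 G2/M gene, −1.45 with at least 3 and −4.34 after thinning. The CD48 difference between members and other cells, −0.0504 on the log2 scale, ran from −0.133 (without WT replicate 1) to 0.032 (without IkBKO replicate 1), and that of CD150, 0.0226, was −0.0739 as a centred log ratio. The difference in the share of members ran from 0.0398 to 0.177 points with 1 library (both genotypes) left out. The causes were not tested. In simulated counts of this depth, with 22 to 41 members a pool, the test within members called 59.6% of 4-fold and 5.4% of 2-fold changes. The interaction test called 19.8% of 4-fold and 0.0% of 2-fold changes.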
